A study of Mus musculus with 394 samples.

Results

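All small particles sorted from cortical synaptosomes were compared with all small particles sorted from striatal synaptosomes of VGLUT1_VENUS mice, the VGlut1 line. The comparison took every small particle library of that genotype, 18 of the 394 libraries in the series, of which 9 were cortical and 9 striatal. They came from 3 cortical preparations, numbered 10, 11 and 12, and 3 striatal preparations, numbered 7, 8 and 9. The 3 technical repeats of each preparation were summed, so that n = 3 per region. In this line a VENUS fluorescent protein is joined to the vesicular glutamate transporter VGlut1 at its own gene, *Slc17a7*, and both regions carried the same allele. The mice were adults between 90 and 150 days of age, of both sexes, and the labels name no treatment.

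The study asked which mRNAs are found and translated in the axons of midbrain dopamine neurons. Small particles were its control for fluorescence-activated synaptosome sorting (FASS): a size gate kept particles that took up a membrane dye and left out aggregates, and no fluorescent reporter was selected. Striatal small particles of 6 DATCrePos_AAV_EGFP preparations (18 libraries, the same age range) were fitted alongside and gave another set of striatal values. In those mice a virus delivered Cre-dependent EGFP, which marks cells with a Cre recombinase under the dopamine transporter gene, but the small particles held every labelled and unlabelled particle of the gate.

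Synaptosomes form when brain tissue is homogenized and nerve terminals pinch off and reseal, often with a piece of the postsynaptic membrane or of a glial process attached. The striatum is built mostly of GABAergic spiny projection neurons, whose dopamine and adenosine receptors act on cAMP through the G protein Golf and adenylyl cyclase 5, and which receive glutamatergic axons from the cortex and thalamus. The cortex is built mostly of glutamatergic pyramidal neurons, which load their vesicles with VGlut1.

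The unit counted was the UMI (unique molecular identifier), which marks a captured mRNA molecule. The cortical preparations held 88315 to 172748 UMIs and the striatal ones 89143 to 106266, with 9228 to 12381 and 9502 to 10176 genes detected. The ratio of the geometric means, cortex over striatum, was 1.30 (exact two-sided permutation test, p = 0.4; 3 against 3 cannot go below 0.1). Repeats of a preparation that differ by counting noise alone give a chi-square over its degrees of freedom of about 1. This ratio was 1.39 to 2.48 in 4 of the 6 preparations, 3.87 in cortical preparation 10 and 4.81 in striatal preparation 8, and those preparations also lay farthest from the other preparations of their region (5.04 and 7.54 for preparation 10, 3.44 and 3.68 for preparation 8, against 2.12 and 1.86 for the remaining pairs). Values without them are therefore given beside several of the results that change by leaving them out. *Dusp10*, *Unc93b1* and *Kcns2*, singled out after their values were seen, together took 213486, 113684 and 70565 CPM (UMIs in a library of 1000000) in cortical preparations 10, 11 and 12, and 166373 to 166742 in the striatal ones. *Kcns2* alone did not overlap, at 14630, 10217 and 5795 CPM in cortex and 25220, 26770 and 24332 in striatal preparations 7, 8 and 9. The regional test below did not call *Kcns2*, and after scaling 5.17% of all genes tested lay lower in cortex without overlap. In the 6 DATCrePos_AAV_EGFP preparations *Kcns2* ranged from 5916 to 28049 CPM. Of the defining genes of dopamine neurons, *Th* (tyrosine hydroxylase) had 1 UMI and *Slc6a3* (the dopamine transporter) 0 UMIs over the 6 preparations, and their absence was not tested. Nothing in the labels says whether the preparations came from separate mice, or whether a cortical and a striatal preparation shared mice, so p-values measure only the spread between these samples, which may be technical.

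Across the 10381 genes with at least 10 UMIs over the 12 small particle preparations fitted, cortical and striatal small particles differed at few genes. Over the 6 VGlut1 preparations alone, 6850 genes reached 10 UMIs. edgeR's quasi-likelihood test called 17 genes at an adjusted p of 0.05, 0.164% of the 10381 tested. Cortex was higher for 4 of them (0.0385%) and lower for 13 (0.125%). The spread between preparations beyond counting noise, as the coefficient of variation fitted across genes over all 12 preparations, was 0.305. It may be technical. Over all genes the median log2 fold change, cortex over striatum, was 0.04 and 48.1% of genes were below 0. At an unadjusted p under 0.05, 414 genes were higher in cortex (3.99%) and 340 lower (3.28%). Among the called genes were markers of striatal spiny neurons, low in every cortical preparation, a group of genes with most of their UMIs in a single library, and a few genes of neither kind.

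**Figure D1:**
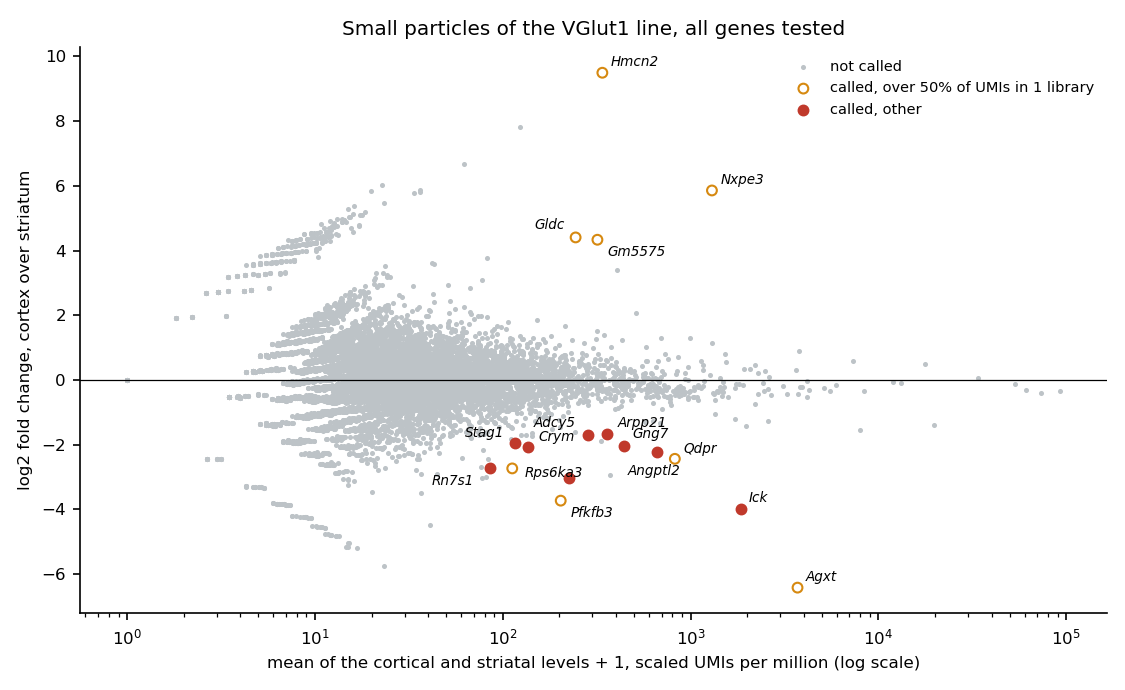
Log2 fold change of the cortical over the striatal level (vertical axis) against the mean level plus 1 in scaled CPM on a log axis (horizontal), for the 10381 genes tested. Of the 17 called genes, 8 (open circles) had over 50% of their UMIs in 1 of the 18 libraries, and the 9 others (filled) were all lower in cortex.

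*Gng7*, which encodes the gamma subunit of the G protein Golf, had 15, 31 and 18 UMIs in cortical preparations 10, 11 and 12 and 78, 50 and 57 in striatal preparations 7, 8 and 9. In scaled CPM, which are CPM after scaling for depth and composition and the unit of single genes from here on, this was 211, 228 and 88.6 in cortex and 771, 649 and 687 in striatum. Every cortical value lay below every striatal value. The means were 176 ± 75.9 and 702 ± 62.3 (SD, n = 3), the log2 fold change was -2.05 ± 0.34 (SE) and the adjusted p was 0.000685. *Gng7* lies on chromosome 10 (80948624 to 81014945, GRCm38, minus strand). In bulk particles, a smaller share of particles from spiny neurons and less of an mRNA in each such particle cannot be told apart.

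*Adcy5*, the adenylyl cyclase of the same pathway, was 155, 154 and 98.5 in cortex and 563, 247 and 482 in striatum, and changed by -1.71 ± 0.38 (adjusted p = 0.0327). The regions did not overlap, with the narrowest gap at striatal preparation 8. The gene lies on chromosome 16 (35154877 to 35305738).

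*Arpp21*, a cAMP-regulated phosphoprotein that binds RNA, was 197, 139 and 182 in cortex and 544, 441 and 639 in striatum (log2 fold change -1.66 ± 0.33, adjusted p = 0.0099). *Crym*, which encodes mu-crystallin, a thyroid hormone-binding protein, was 98.5, 36.7 and 34.5 in cortex and 188, 221 and 229 in striatum (-2.08 ± 0.42, adjusted p = 0.0101). Neither gene overlapped between the regions. *Arpp21* lies on chromosome 9 (112065091 to 112235938) and *Crym* on chromosome 7 (120186380 to 120202111). *Gng7*, *Arpp21*, *Crym* and *Adcy5* were also below all 6 preparations of the DAT:EGFP line, and so below all 9 striatal preparations, as were 62 of the 10381 genes (0.597%).

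These 4 genes were called with and without the preparations that stood apart. All 4 calls nevertheless depended on the samples fitted, and 3 of them also on the scaling. Without preparations 8 and 10, an alternative chosen after seeing the data, the log2 fold change was -2.24 for *Gng7*, -1.86 for *Arpp21*, -2.52 for *Crym* and -2.07 for *Adcy5*, with adjusted p between 0.00132 and 0.0117 in edgeR. With only the 6 VGlut1 preparations in the fit, *Arpp21* and *Crym* (adjusted p = 0.0566 each) and *Adcy5* (0.127) were not called. Scaling by total UMIs also ended the calls of *Arpp21* (0.102), *Crym* (0.0569) and *Adcy5* (0.196), and TMM scaling that of *Adcy5* (0.0589). In edgeR, *Adcy5* was also lost with at least 50 UMIs (adjusted p = 0.13), all 24 samples (0.0598) or first technical repeats alone (0.086). An additive DESeq2 model did not call *Adcy5* (adjusted p = 0.0825). *Arpp21* was lost with first repeats alone, at -1.24 (edgeR adjusted p = 0.47). The other preparations, left out in turn, ended more calls while each direction held. *Gng7* was lost without cortical preparation 12 alone (adjusted p = 0.0516), *Crym* without 9, 11 or 12 (0.0733 to 0.262), *Arpp21* without 7, 9, 11 or 12 (0.0608 to 0.173) and *Adcy5* without 7, 9, 11 or 12 (0.123 to 0.375).

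**Figure D2:**
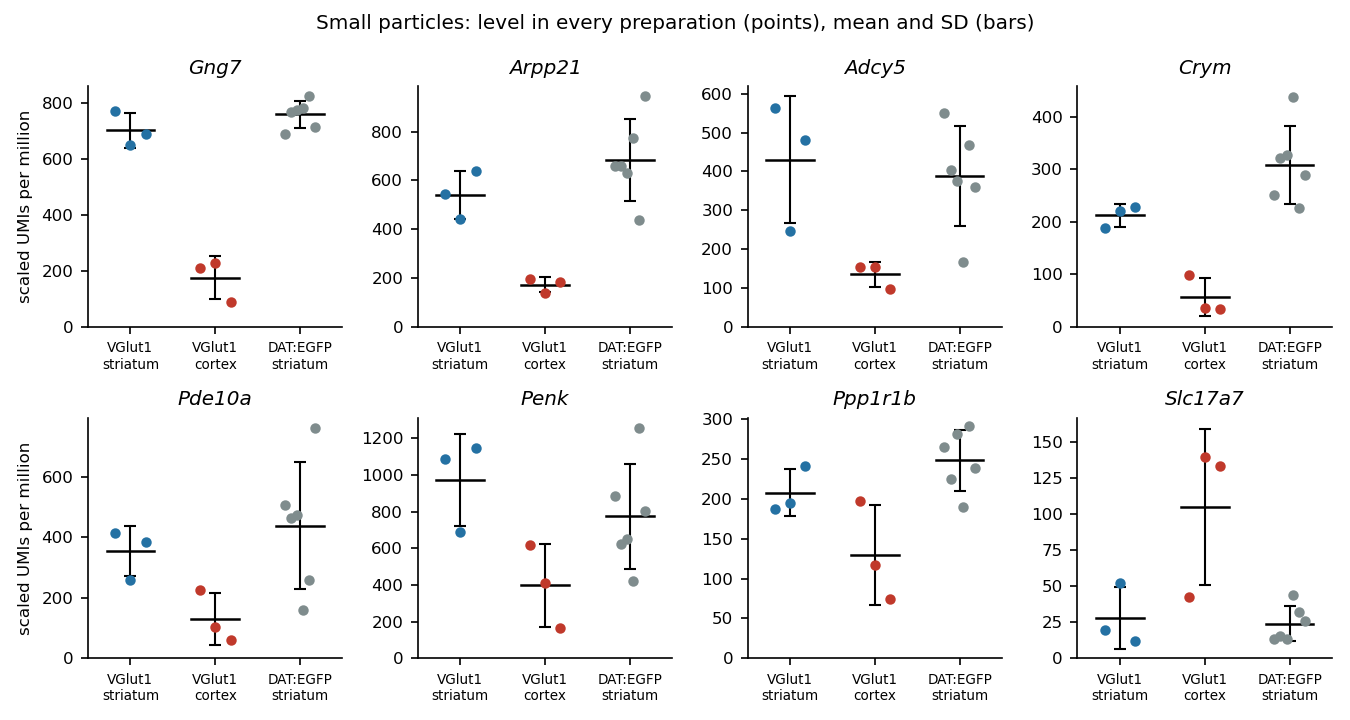
Level in scaled CPM (vertical axis, from 0) of 8 genes in each small particle preparation (points), with the mean (line) and SD (bar), for VGlut1 striatum (n = 3), VGlut1 cortex (n = 3) and DAT:EGFP striatum (n = 6). The cortical points of *Gng7*, *Arpp21*, *Adcy5* and *Crym* lie below every striatal point, *Ppp1r1b* overlaps, and *Slc17a7* is highest in cortical preparations 11 and 12.

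*Ick*, *Angptl2*, *Rn7s1* and *Stag1* were also called lower in cortex, with no library holding over 50% of the UMIs. Like *Crym*, they are not in the list of spiny neuron genes. *Ick*, a kinase of primary cilia, was 282, 279 and 118 in cortex and 3331, 4907 and 2171 in striatum (-3.98 ± 0.77, adjusted p = 0.00754). Its high striatal values came largely from single libraries: the second repeat of preparation 7 held 303 of 337 UMIs and the first repeat of preparation 8 held 365 of 378, while the 3 repeats of preparation 9 held 75, 79 and 26. In the striatum of the DAT:EGFP line it ranged from 143 to 6122 with a median of 338, and overlapped the cortical values. *Angptl2*, a secreted angiopoietin-like protein, was 225, 360 and 123 in cortex and 1394, 1376 and 507 in striatum (-2.22 ± 0.46, adjusted p = 0.0113), and 102 to 695 in the other line. Without preparations 8 and 10 neither was called (adjusted p = 0.0663 and 0.12), nor without preparation 8 alone (0.0582 and 0.0795). *Rn7s1*, a signal recognition particle RNA with many near-identical genomic copies whose reads may be split between them, had 9 UMIs in cortex and 39 in striatum (-2.73 ± 0.54, adjusted p = 0.00786) and is uncertain for that reason. It was not called without preparation 8 (adjusted p = 0.0582) or without both (0.101). *Stag1*, a cohesin subunit named after its values were seen, had 19 and 48 UMIs (-1.95 ± 0.45, adjusted p = 0.0463). It was 66.9 to 143 in the striatum of the DAT:EGFP line and overlapped the cortical values of 28.2, 80.7 and 29.5. Against that striatum, cortex was at -1.14 and edgeR did not call it (adjusted p = 0.266).

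The remaining 8 called genes each had over 50% of their UMIs in 1 of the 18 libraries, as did 57 of the 10381 genes, and none of the 8 separated the regions. All 4 genes called higher in cortex were of this kind and owed it to the first repeat of cortical preparation 10. That library held 541 of the 558 UMIs of *Nxpe3*, all 144 of *Hmcn2*, 126 of the 142 of *Gm5575* and 93 of the 112 of *Gldc*, which encodes glycine decarboxylase, a mitochondrial enzyme rich in astrocytes. Without preparation 10, *Gldc* was at 1.01 (adjusted p = 0.888), and *Nxpe3* and *Gm5575* turned to -1.49 and -0.01, with adjusted p of 0.73 and 1.

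On the striatal side, the first repeat of preparation 8 held 1662 of the 1724 UMIs of *Agxt*, a peroxisomal aminotransferase. The third repeat of preparation 7 held 111 of the 126 of *Pfkfb3*, a regulator of glycolysis, and the first repeat of preparation 9 held 278 of the 450 of *Qdpr*, which regenerates tetrahydrobiopterin. For *Rps6ka3*, a kinase of the MAP kinase pathway named after its values were seen, 47 of 71 came from the second repeat of preparation 7. Without preparation 8, *Agxt* was at -0.62 (adjusted p = 0.916), and without preparation 9, *Qdpr* was at -0.45 (0.872). Outside those libraries the values overlapped: *Agxt* was 183, 73.4 and 34.5 in cortex and 89, 21691 and 169 in striatum, and *Qdpr* was 310, 220 and 246 against 287, 415 and 3461. When the 57 genes were left out, a choice made after seeing the data, 8 genes were called, all lower in cortex and all among the 17.

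**Figure D3:**
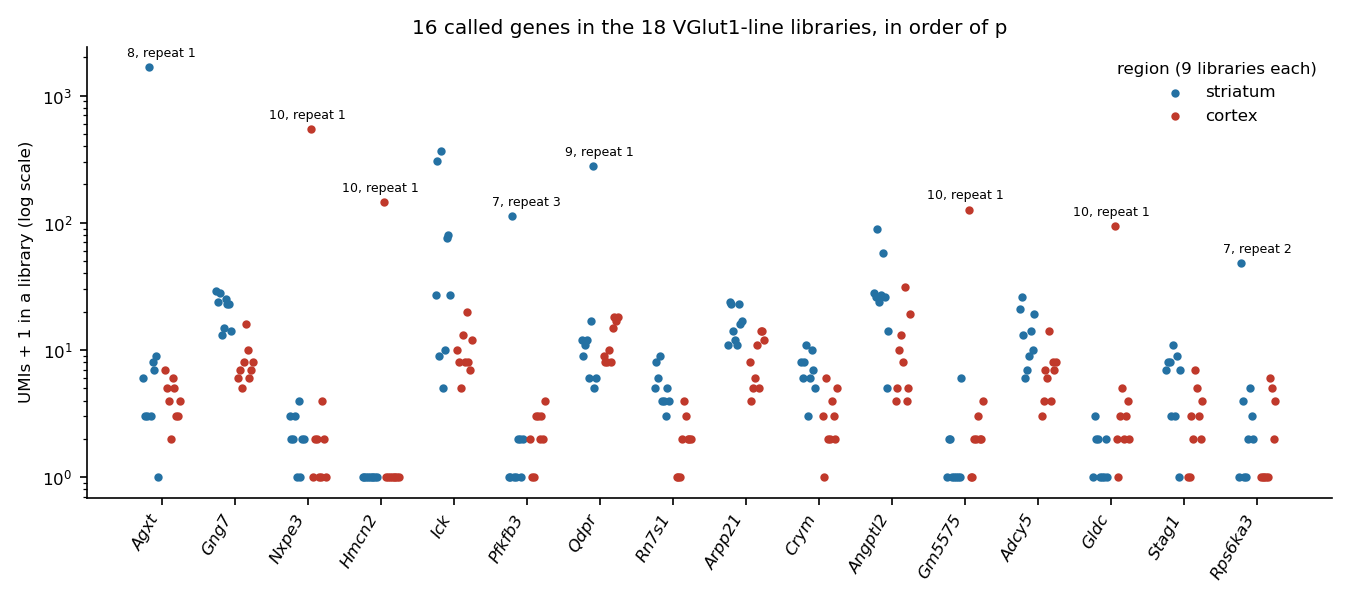
UMIs plus 1 on a log axis (vertical) of 16 called genes in each of the 18 libraries (points, 9 striatal and 9 cortical), in order of p; labels name the preparation and repeat that held over 50% of a gene's UMIs. *Gng7*, *Arpp21*, *Crym* and *Adcy5* show no such library, whereas single points set *Agxt*, *Nxpe3* and *Hmcn2* apart.

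Genes that mark striatal spiny neurons were lower in cortex as a list. Of 32 listed genes 31 passed the filter, *Isl1* being the exception, and all 31 had a log2 fold change below 0, with a median of -1.49 against 0.04 over all genes. The test called 4 of them, *Gng7*, *Arpp21* and *Adcy5* included, where 0.125% of all genes were called lower. *Crym* is not in this list. All 3 cortical values lay below all 3 striatal values for 17 of the 31, against 5.17% of all genes, and below all 9 striatal values for 8, against 0.597%. Summed over the list, unscaled, cortex had 2072, 2165 and 1586 CPM and striatum 5825, 3342 and 6046. The 6 preparations of the DAT:EGFP line lay between 3849 and 8064, so cortex stood below all 9, and striatal preparation 8 was the lowest of them.

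The peptide precursors of the spiny neurons shared that order without passing the test. *Penk*, which encodes proenkephalin of the indirect pathway, was 619, 411 and 167 in cortex and 1087, 688 and 1146 in striatum (-1.34 ± 0.37, adjusted p = 0.19). *Tac1*, the substance P precursor of the direct pathway, was 70.4, 22 and 29.5 against 98.8, 117 and 133 (-1.68 ± 0.51, adjusted p = 0.257), and *Pdyn*, which encodes prodynorphin, had 6 and 9 UMIs. The cortical preparations lay below the striatal ones for each of the 3. Without preparations 8 and 10, *Penk* was called at -1.96 (adjusted p = 0.0144), and without preparation 10 alone at -1.77 (adjusted p = 0.0262).

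Dopamine receptors, which had few UMIs, and the classic spiny neuron phosphoprotein were not called. *Drd1*, the dopamine receptor of the direct pathway, had 0, 2 and 5 UMIs in cortex and 3, 2 and 9 in striatum. *Drd2*, that of the indirect pathway, had 0, 0 and 2 against 3, 0 and 5. *Ppp1r1b*, which encodes the phosphatase inhibitor DARPP-32, had 14, 16 and 15 UMIs against 19, 15 and 20, and at 197, 117 and 73.8 against 188, 195 and 241 it overlapped between the regions (-0.78 ± 0.37, adjusted p = 0.682).

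Genes of intracellular signalling lay on both sides. Of 27 tested genes of cAMP, kinase and phosphatase signalling, 8 also stand in the spiny neuron list. Of the 27, 18 were below 0, where 48.1% of all genes were, and the median was -0.36. The 2 called lower, where 0.125% of all genes were, were *Gng7* and *Adcy5*, both of the spiny neuron list. *Pde10a*, the cyclic nucleotide phosphodiesterase of spiny neurons, was 225, 103 and 59.1 in cortex and 415, 260 and 386 in striatum (-1.60 ± 0.43, adjusted p = 0.176), without overlap, and was called without preparations 8 and 10 at -2.33 (adjusted p = 0.0144). *Adcy1*, the calmodulin-stimulated adenylyl cyclase, ran the other way without a call, with 9, 84 and 133 UMIs in cortex and 21, 7 and 17 in striatum (1.50 ± 0.43, adjusted p = 0.229), and cortical preparation 10 lay with the striatal ones. *Gnb1*, a G protein beta subunit, had 36, 72 and 97 UMIs against 24, 17 and 24 (1.01 ± 0.31, adjusted p = 0.281).

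Among 20 tested calcium and calmodulin binding genes, 12 were below 0, the median was -0.13 and 0 were called by edgeR, with 6 at an unadjusted p under 0.05. The calmodulin-binding peptides *Pcp4* and *Pcp4l1* came nearest. *Pcp4* was 493, 360 and 158 in cortex and 820, 935 and 651 in striatum (-1.30 ± 0.33, adjusted p = 0.113), also below all 6 values of the DAT:EGFP line. *Pcp4l1* was 113, 73.4 and 29.5 against 257, 208 and 169 (-1.73 ± 0.43, adjusted p = 0.0981). Without preparation 10 both were called, at -1.65 and -2.10 (adjusted p = 0.0231 and 0.0262). DESeq2 on the same groups called both (adjusted p = 0.00556 and 0.0259).

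The sodium channel subunit *Scn4b*, abundant in spiny neurons, was 70.4, 66 and 54.1 in cortex and 267, 104 and 229 in striatum (-1.70 ± 0.45, adjusted p = 0.157). *Kcnip2*, an auxiliary subunit of the A-type potassium channel, was 28.2, 14.7 and 29.5 against 49.4, 51.9 and 133 (-1.64 ± 0.57, adjusted p = 0.418). Neither overlapped. The other channel genes spread to both sides: of 17 tested, 9 were below 0 and 8 above, with a median of -0.22 and 0 called by edgeR, 2 of them at an unadjusted p under 0.05. The median was 0.17 without preparation 10, -0.57 without preparation 8 and -0.18 without both.

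Markers of cortical glutamatergic neurons were mostly above 0. Of 22 listed genes 16 were tested, 13 were above 0 and the median was 0.96. edgeR called 0 of them, and 6 had an unadjusted p under 0.05. Without preparation 8 the median was 0.67 with 12 of 16 above 0, and without both preparations it was 0.78. For 4 of the 16, all 3 cortical values exceeded all 3 striatal values, where 6.65% of all genes did so. *Mef2c*, a transcription factor of pyramidal neurons, was 141, 257 and 305 in cortex and 29.6, 38.9 and 133 in striatum (1.87 ± 0.47, adjusted p = 0.0981). Without preparation 10 it was called at 2.09 (adjusted p = 0.0262), and without both preparations it was not, at 1.85 (0.158). *Nrn1*, which encodes the growth-associated neuritin, was 84.5, 103 and 143 against 39.5, 0 and 48.2 (1.89 ± 0.60, adjusted p = 0.334).

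*Slc17a7* itself, the gene that carries VENUS in this line, had 3, 19 and 27 UMIs in cortex and 2, 4 and 1 in striatum. At 42.2, 139 and 133 against 19.8, 51.9 and 12.1 the regions overlapped through cortical preparation 10 and striatal preparation 8 (2.03 ± 0.59, adjusted p = 0.229). Without both it was called at 3.01 (adjusted p = 0.0479). *Tbr1*, a transcription factor of deep-layer neurons named after its values were seen, had 12 UMIs in cortex and 1 in striatum and was not called. Near 0 in the same list, *Nrgn*, which encodes the postsynaptic calmodulin-binding neurogranin, was 493, 338 and 335 in cortex and 455, 338 and 314 in striatum (0.05 ± 0.32, adjusted p = 0.989).

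Cortical preparation 10 had the lowest sum of this list in its region. The summed list was 1370, 2570 and 3248 CPM in cortical preparations 10, 11 and 12 and 1675, 1090 and 1548 in striatal preparations 7, 8 and 9, so that preparation 10 lay within the striatal range. The ratio of the spiny neuron sum to the cortical sum nevertheless separated the regions. It was 1.51, 0.843 and 0.488 in cortex, 3.48, 3.07 and 3.91 in striatum, and 2.93 to 5.61 in the DAT:EGFP line.

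**Figure D4:**
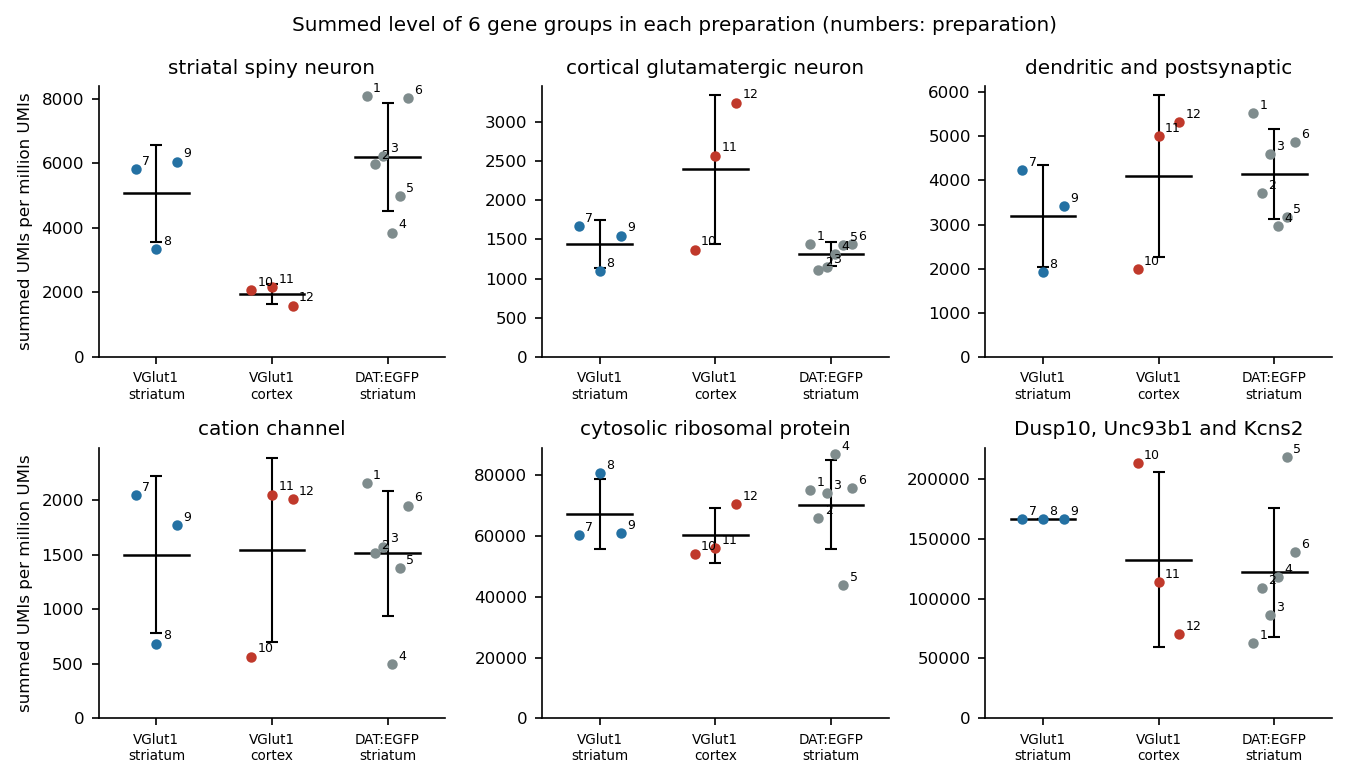
Summed CPM (vertical axis, from 0) of 6 gene groups in each preparation (points with the preparation number), with mean (line) and SD (bar), for VGlut1 striatum, VGlut1 cortex and DAT:EGFP striatum. Spiny neuron genes set cortex (1586 to 2165) below every striatal preparation (3342 to 8064), while preparations 8 and 10 lie low for dendritic and cation channel genes.

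Dendritic and postsynaptic mRNAs overlapped between the regions and spread widely within each. The summed dendritic and postsynaptic list was 1993, 5002 and 5320 CPM in cortex and 4225, 1931 and 3410 in striatum, and the lowest preparation of each region, 10 and 8, lay side by side. The 20 genes of that list had a median log2 fold change of 0.00, with 10 on either side, and the edgeR calls were 0, with 2 at an unadjusted p under 0.05. *Shank1*, a scaffold of the postsynaptic density, had 2, 34 and 52 UMIs in cortex and 9, 8 and 6 in striatum. *Camk2a*, the dendritic kinase mRNA, was 605, 1402 and 1167 against 850, 389 and 699 (0.72 ± 0.34, adjusted p = 0.681).

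Preparation 10 differed from the mean of 11 and 12 by a median log2 of -0.72 over the dendritic genes, 17 of 20 being below, and by -1.05 over the channel genes and 0.26 over the cytosolic ribosomal protein genes, against -0.07 over all genes. Preparation 8 differed from the mean of 7 and 9 by -0.47, -0.79 and 0.65 over the same lists, against 0.00 over all genes. For the ribosomal protein genes the unscaled sum of preparation 10, 54181 CPM, was nevertheless the lowest of the cortical preparations, whereas that of preparation 8, 80622 CPM, was the highest of the striatal ones. Their part in the regional comparison was tested only by leaving them out.

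Of 26 tested synaptic vesicle and release genes, 18 were above 0 with a median of 0.21, which became -0.10 with 11 of 26 above 0 without striatal preparation 8. *Syp*, which encodes the vesicle protein synaptophysin, was 98.5, 301 and 231 in cortex and 158, 64.9 and 72.4 in striatum (1.11 ± 0.43, adjusted p = 0.522). Of 15 active zone genes 12 were above 0 with a median of 0.23, and 9 of 15 with a median of 0.25 without preparation 8. *Bsn* and *Rims1*, which encode scaffold proteins of the active zone, had log2 fold changes of 0.87 ± 0.46 and 0.04 ± 0.36 (adjusted p = 0.714 and 0.994). Without preparation 8 they were at 0.48 and 0.94 (adjusted p = 0.901 and 0.561). edgeR called 0 genes of both lists, with 5 and 0 at an unadjusted p under 0.05.

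Receptors for the main transmitters gave no call. The median was -0.18 over 14 glutamate receptor genes and 0.35 over 11 GABA receptor genes, where the edgeR calls were 0, with 0 and 2 at an unadjusted p under 0.05. *Gabbr2*, a subunit of the metabotropic GABA receptor, was 56.3, 330 and 222 in cortex and 119, 51.9 and 84.4 in striatum (1.29 ± 0.45, adjusted p = 0.418). Of 9 tested GABAergic neuron genes, 6 were below 0, and 8 of 9 without preparation 8. *Gad2*, a glutamate decarboxylase that makes GABA and is used by spiny neurons as well as interneurons, was 42.2, 29.4 and 73.8 in cortex and 119, 130 and 145 in striatum (-1.33 ± 0.45, adjusted p = 0.393), without overlap.

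Axonal and cytoskeletal genes had a median of 0.01 over 24 tested, 0 called by edgeR and 2 at an unadjusted p under 0.05. *Nefl*, the light neurofilament subunit, was 211, 191 and 177 in cortex and 98.8, 117 and 36.2 in striatum (1.18 ± 0.40, adjusted p = 0.393). *Kif5a*, a kinesin motor of axonal transport, was 4744, 5445 and 4578 against 2817, 2635 and 2508 (0.89 ± 0.33, adjusted p = 0.46). The cortical values of both lay above the striatal ones, and *Nefl* also above all 6 of the DAT:EGFP line. The additive DESeq2 model over all 24 samples of the plate called both (adjusted p = 0.00231 and 0.00609).

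Glial markers were abundant in both regions. Astrocyte genes summed to 19476, 24346 and 25008 CPM in cortex and 17579, 17438 and 15885 in striatum, without overlap, although the range in the DAT:EGFP line, 15390 to 24729, covered most of both. Of 25 tested astrocyte genes, 20 were above 0 with a median of 0.31, and 23 of 25 with a median of 0.49 under scaling by total UMIs. That scaling also moved the median over all genes, from 0.04 to 0.24. The edgeR calls were 0, with 6 at an unadjusted p under 0.05. *Glul*, which encodes glutamine synthetase, was 2069, 1989 and 1758 in cortex and 1137, 1337 and 844 in striatum (0.81 ± 0.31, adjusted p = 0.496). *Apoe*, the lipid carrier of astrocytes, had a log2 fold change of -0.18 ± 0.31. The part of astrocyte material in the regional differences was not tested.

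Oligodendrocyte genes summed to 4088, 4788 and 6165 in cortex and 6879, 5481 and 7752 in striatum and overlapped. Of 15 tested, 12 were below 0 with a median of -0.47, and the 1 called, *Qdpr*, rested on a single library. *Mbp*, which encodes myelin basic protein, had a log2 fold change of -0.33 ± 0.31 (adjusted p = 0.915). Microglial genes overlapped, at 3919 to 5760 in cortex and 3612 to 5865 in striatum, with a median of 0.12 over 13 genes, which was 0.55 with 11 of 13 above 0 without preparation 8. The 3 haemoglobin genes tested had 3 UMIs in cortex and 17 in striatum. All 3 were below 0 with a median of -2.57, and edgeR called 0 of them, with 2 at an unadjusted p under 0.05. The summed red blood cell list overlapped, at 22.6, 7.62 and 0 CPM in cortex and 104, 62.3 and 11.2 in striatum. Among 5 endothelial and mural and 3 choroid plexus and ependyma genes tested the edgeR calls were 0, with 0 at an unadjusted p under 0.05.

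mRNAs for the translation machinery and mitochondria were mostly below 0, to an extent that moved with the scaling and with striatal preparation 8. Of 79 cytosolic ribosomal protein genes, 74 were below 0, with a median of -0.33, and the edgeR calls were 0, with 1 at an unadjusted p under 0.05. Their sum was 54181, 55957 and 70415 CPM in cortex and 60179, 80622 and 60846 in striatum, and overlapped. Without striatal preparation 8 the median was -0.09 with 54 of 79 below 0, and with scaling by total UMIs it was -0.13 with 65 below 0, against a median over all genes that moved from 0.04 to 0.24. All 12 tested mitochondrially encoded mRNAs were below 0 with a median of -0.35, and 10 of 12 with -0.19 under scaling by total UMIs. For 75 nuclear genes of the respiratory chain the median was -0.13 with 48 below 0, but 0.04 with 33 below 0 under scaling by total UMIs, and -0.02 with 39 below 0 without preparation 8. The housekeeping gene *Actb*, which encodes beta-actin, was 1605, 1093 and 1280 in cortex and 988, 1337 and 1266 in striatum (0.14 ± 0.30).

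Of the other lists, 9 immediate early genes (median -0.10), 6 nuclear RNAs (-0.11) and 4 sex-linked genes (-1.13, 4 of 4 below 0) were tested, and edgeR called 0 of them, with 0, 1 and 1 at an unadjusted p under 0.05. The immediate early median was -0.54 without preparation 8 and -0.76 without both preparations, and the nuclear RNA median was -0.47 without preparation 10. The summed sex-linked genes were 215, 45.7 and 28.9 CPM in cortex and 84.7, 114 and 135 in striatum, and without preparation 10 their median was -2.74. The 7 neuropeptide genes tested, of which 5 were below 0, had a median of -0.43 (-1.13 without preparation 10), with 0 called by edgeR and 2 at an unadjusted p under 0.05. Only 1 gene of cholinergic neurons (*Slc5a7*, the choline transporter, 2 UMIs in cortex and 3 in striatum) and 2 of dopaminergic neurons (*Nr4a2* and *Aldh1a1*) passed the filter, and edgeR called 0 of them, with 0 at an unadjusted p under 0.05. *Egr1*, an activity-induced transcription factor, was 42.2, 29.4 and 44.3 in cortex and 138, 38.9 and 36.2 in striatum, the difference resting on striatal preparation 7.

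**Figure D5:**
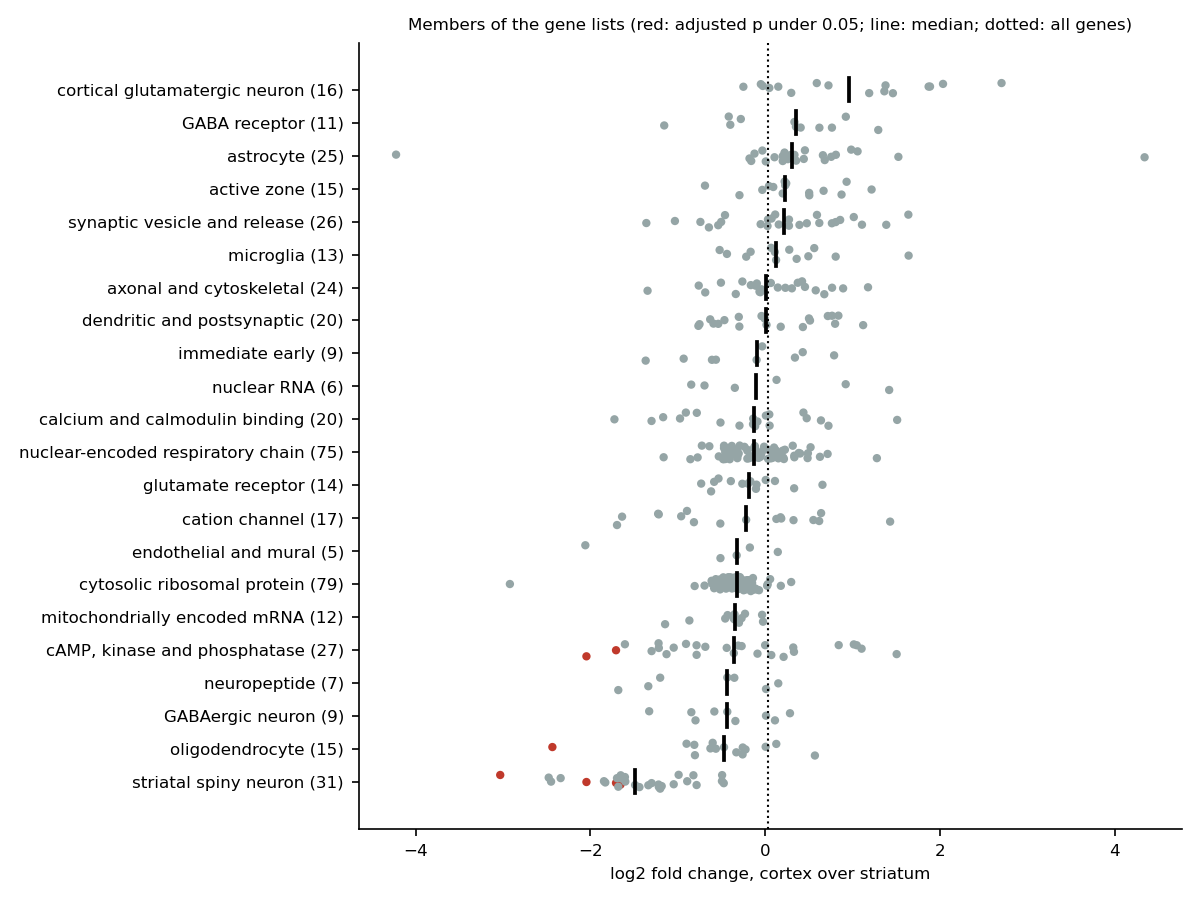
Log2 fold change, cortex over striatum (horizontal axis), of the tested members (points) of each gene list with at least 5 members tested, with the list median (line) and the median of all genes (dotted line, 0.04); the number tested stands beside each name. Spiny neuron genes lie left of 0 (31 of 31, median -1.49), cortical glutamatergic genes mostly right (13 of 16, median 0.96), and called genes are red.

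The striatal samples of the other mouse line gave another set of striatal values. They had entered the regional fit through its scaling, filter and shared spread, though not its contrast, and the line, the virus and the number of preparations differ. The cortical preparations are the same, so the values stand side by side and are not independent of the ones above. Against DAT:EGFP striatum, 82 genes were called (0.79%), 54 higher in cortex (0.52%) and 28 lower (0.27%). Among the 54 were *Nxpe3*, *Hmcn2* and *Gm5575*, carried by the first repeat of cortical preparation 10 (edgeR adjusted p from 8.01e-07 to 2.67e-05). When the 57 genes held by 1 library were left out, 101 genes were called, 70 of them among the 82. Of the spiny neuron list, 10 of 31 were lower, with all 31 below 0 and a median of -1.86 against 0.01 over all genes. *Gng7* changed by -2.15, *Arpp21* by -2.001 and *Adcy5* by -1.55 (adjusted p from 1.66e-05 to 0.00922). *Pde1b*, a calmodulin-dependent phosphodiesterase, fell by 2.15 here (adjusted p = 0.00051) and was at -1.22 against the VGlut1 striatum (adjusted p = 0.493).

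Of the cortical glutamatergic list, 5 of 16 were higher than in DAT:EGFP striatum, with a median of 1.45. *Nrn1* rose by 3.12, *Slc17a7* by 2.36, *Nptx1*, which encodes a neuronal pentraxin, by 2.09, *Vsnl1*, a neuronal calcium sensor, by 2.04 and *Sv2b*, a synaptic vesicle protein, by 1.64 (adjusted p from 9.42e-05 to 0.0123). The GABA receptor subunit *Gabbr2* rose by 1.99 and *Shank1* by 1.999. None of these 7 was called against the VGlut1 striatum, where their log2 fold changes ranged from 0.72 to 2.03.

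The striatal preparations of the lines themselves differed at 24 genes, all lower in the DAT:EGFP line (0.231%), and 0 of the 31 spiny neuron genes were among them, whose median was 0.22 against 0.04 over all genes. *Agxt*, *Pfkfb3*, *Qdpr* and *Rps6ka3*, which 1 VGlut1 library carried, were among the 24. So were *Angptl2* (-1.80, adjusted p = 0.00726) and *Rn7s1* (-1.82, adjusted p = 0.0226), which no single library carried. Cortex was at -0.42 and -0.91 against DAT:EGFP striatum for these genes, and edgeR called neither (adjusted p = 0.893 and 0.734). *Ick* and *Stag1* were not called between the lines (adjusted p = 0.670 and 0.803). Line, virus and preparation cannot be told apart here.

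VGlut1-positive particles sorted by FASS from the same 6 preparations gave the regional comparison at a lower depth, 16947 to 39742 UMIs a sample. edgeR called 6 genes there (0.0545%), 2 higher (0.0182%) and 4 lower (0.0364%), and 0 of the spiny neuron list, of which 24 of 31 were below 0 with a median of -1.14 against 0.00 over all genes. *Gng7* was at -1.70, *Crym* at -2.27, *Arpp21* at -0.94 and *Adcy5* at -0.88. The ratio of the spiny neuron sum to the cortical sum was 1.67, 0.658 and 0.434 in sorted cortical samples 10, 11 and 12 and 1.93, 2.40 and 3.16 in sorted striatal samples 7, 8 and 9, so the regions kept apart, with sorted cortical sample 10 again nearest to the striatum.

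Whether the regional difference itself changed with sorting was tested in a fit of all 24 samples. edgeR called 0 of 11001 genes, with 449 at an unadjusted p under 0.05, and DESeq2 called 0, with 180. With the preparation number as a replicate block, edgeR called 3, *Angptl2*, *Agxt* and *Ick*. Without the block *Ick* (-3.15) and *Agxt* (-5.76) came nearest, each with an adjusted p of 0.0698. Under TMM scaling, which moved the median over all genes from 0.00 to -0.33, 5 genes were called. For *Gng7* the regional log2 fold change among all small particles minus that among sorted ones was -0.22 ± 0.58 (SE, adjusted p = 1).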

How the data were processed

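The plate-based 3′-end RNA-seq libraries had been made by the authors from particles sorted out of Ficoll gradient synaptosomes, all on plate PB007. Per the methods, the authors trimmed poly(A), aligned reads with STAR to GRCm38 with GENCODE vM10, and collapsed UMIs that differed by 1 base. The deposited table holds these UMI counts per gene (48531 genes), without normalization, and every column matched a label. Gene positions are from GENCODE vM21 on GRCm38, a release other than the authors'. Libraries were grouped by labels, and repeats of a preparation by the authors' sample sheet, which also gives FASS and small particle samples of a preparation the same number. Deviations of same-numbered samples from their group means correlated by -0.03 to 0.15, and their own partner was best for 5 of 12.

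Repeats were summed. The 12 small particle preparations were fitted with group means in edgeR 4.0.16 (R 4.3.3; median-of-ratios scaling, at least 10 UMIs over the samples, glmQLFTest, Benjamini-Hochberg over all genes tested, 0.05), and the region by sorting and FASS contrasts over all 24 samples. The test script was tested on simulated counts. Within-region differences used log2 with a pseudocount of 20. Alternatives were other scalings and filters, DESeq2 1.42.0, other sample sets and leaving out preparations. Counting error is included in the fits; no interval on single counts was made.

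Named genes were the called genes with the smallest p at or above the median level, at most 10 per direction, up to 3 genes with the smallest p of each of 27 lists, and a fixed set. *Adcy1*, *Gnb1*, *Tbr1*, *Pde1b*, *Nptx1*, *Vsnl1*, *Sv2b*, *Stag1*, *Rps6ka3*, *Dusp10*, *Unc93b1* and *Kcns2* lie outside this rule and were chosen after their values were seen. Members and lists were chosen with earlier results of these data known. The full-length RNA-seq table and the other samples of the series were not used here. Some genes that the rule names are not reported here.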

Additional observations from a re-analysis of the deposited data

Results flagged for a closer look

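Of 92 named genes tested in the 6 DAT:EGFP striatal preparations, 15 had 1 preparation far from the other 5 (a gap past Dixon's critical value). For normally distributed values chance gives about 1 in 20. Levels that rest on few UMIs are not so distributed, and the 15 cannot be set against that rate. In scaled CPM, the value that stood high was 2.70 for *Hmcn2* (1 UMI), 80.8 for *Gm5575*, 431 for *Gldc*, 323 for *Agxt*, 6122 for *Ick*, 38.6 for *Slc5a7*, 16.2 for *Igfbp7*, 114 for *Shank1*, 373 for *Rpl6*, 116 for *Egr1*, 277 for *Neat1* and 80.8 for *Drd2*. The value that stood apart was 129 for *Sparc*, 36.5 for *Grin2a* and 2801 for *Cst3*. Groups of 3 were not tested this way.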

How the results depend on the processing

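For the regional comparison of small particles, against 17 genes called, 48 were called with a filter of at least 1 UMI, 5 with at least 50 UMIs, 5 with only the 6 VGlut1 preparations and 28 with all 24 samples. Robust dispersions gave 30, and leaving out genes held by 1 library gave 8, both chosen after seeing the data. Leaving out 1 preparation gave 6 to 25: 8 without striatal 7, 11 without striatal 9, 10 without cortical 11, 6 without cortical 12 and 25 without cortical 10. TMM and DESeq2 called 15 each, sharing 14 and 5 genes with the 17, and 13 were called with total UMIs, which moved the median over all genes to 0.24. Of the 31 spiny neuron genes, all were below 0 under the scalings tried and without preparations 8 or 10, but 28 without striatal 7, 30 without striatal 9, 30 without cortical 11 and 29 without cortical 12, and 26 of 28 tested in the first technical repeat.

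Between lines, against 24 genes, at least 1 UMI gave 61, at least 50 UMIs 12, DESeq2 4, without genes held by 1 library 13, and leaving out 1 preparation 10 (without striatal 7; 15 without striatal 8) to 25. For cortex against DAT:EGFP striatum, against 82, total UMIs gave 52, at least 1 UMI 151, DESeq2 42 and without genes held by 1 library 101. Leaving out 1 preparation gave 28 (without cortical 12) to 101 (without cortical 10), with 45 without cortical 11. In FASS, against 6, at least 50 UMIs and DESeq2 gave 0, and leaving out 1 preparation 2 to 5.

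For region by sorting, against 0, TMM and TMMwsp gave 5, total UMIs 3, at least 1 UMI 3, without preparations 8 and 10 gave 4, without genes held by 1 library 2, and leaving out 1 preparation 1 to 2. With the preparation number as a replicate block, pairing each sorted sample with its small particles, 3 genes were called (*Angptl2*, *Agxt* and *Ick*).

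Of the named genes, 14 turned direction. Without preparations 8 and 10, *Nxpe3* was at -1.11, *Gm5575* -0.51, *Aldh1a1* 0.17, *Sparc* 0.21, *Nrgn* -0.20 and *Cst3* 0.014. In the first technical repeat, *Pfkfb3* was at 1.66, *Ttr* 0.18 and *Rims1* -0.062. With total UMIs, *Aldh1a1* was at 0.031 and *Sparc* 0.0397; with all 24 samples, 0.0001 and 0.0089; in the additive DESeq2 model, 0.38 and 0.039, with *Igfbp7* at 0.18 and *Apoe* at 0.024. Leaving out 1 preparation, *Nxpe3* ranged from -1.49 to 6.46, *Gm5575* from -0.0055 to 5.54, *Pfkfb3* from -4.27 to 0.60, *Egr1* from -1.24 to 0.047, *Aldh1a1* from -0.47 to 0.11, *Sparc* from -0.52 to 0.15, *Ttr* from -0.73 to 0.35, *Ddx3y* from -1.57 to 0.30, *Nrgn* from -0.14 to 0.23, *Actb* from -0.0069 to 0.27, *Rims1* from -0.29 to 0.94, *Apoe* from -0.33 to 0.0605 and *Cst3* from -0.36 to 0.11, and *Igfbp7*, tested in 1 of these, was at 0.35. The causes were not tested.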
